A study of Xenopus tropicalis with 26 samples.

Results

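The regions described here have a called H3K4me1 peak in an injected sample of the second ChIP-seq experiment of this study and no called peak in its untreated samples. H3K4me1 (histone H3 carrying a single methyl group at lysine 4) was mapped in Xenopus tropicalis embryos at Nieuwkoop-Faber stage 10.25, reached 7 hours after fertilisation, and the peak lists deposited by the authors were compared. In the second experiment, called set 2, there was 1 library per sample: animal cap (ectoderm), marginal zone (mesoderm) and vegetal mass (endoderm) of embryos injected with 5 pg of alpha-amanitin, vegetal mass after injection of Vegt, Otx1 and Foxh1 morpholinos, and the 3 tissues of untreated, wild type embryos. In the first experiment, set 1, untreated animal cap and marginal zone tissue were profiled in 2 replicates each, and 1 list on pooled replicates was given per tissue. Tissue for each ChIP sample was dissected from 100 embryos. The labels name no mock injection and no control morpholino, so the act of injection and the agent injected cannot be told apart. Peaks of the 4 injected lists that overlapped by at least 1 bp were merged into 6353 regions. Of these, 1389 overlapped no peak of the 3 untreated set 2 lists (21.9%), and they are called injection-only regions below. The 9 lists together, set 1 included, merged into 24314 regions. The other 4964 injected regions overlapped an untreated set 2 peak. The set 1 lists did not enter this choice, and 871 of the 1389 regions were in one of them (62.7%), so "injection-only" refers to set 2 alone and does not mean that untreated embryos lack the mark there.

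H3K4me1 is placed by the MLL3/MLL4 family of methyltransferases and is known for marking enhancers, active or primed, and the flanks of active promoters. In the early frog embryo, maternal transcription factors bind regulatory DNA before the zygotic genome is transcribed, and zygotic factors act on it later. Alpha-amanitin inhibits RNA polymerase II and so blocks zygotic transcription. Vegt is a vegetally localised T-box factor that starts endoderm formation, Otx1 is a homeodomain factor, and Foxh1 is a forkhead factor that works with the Smad proteins of Nodal signalling; morpholinos are antisense oligomers that block translation or splicing of their target.

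The injected lists held 3206 peaks in alpha-amanitin ectoderm, 3648 in alpha-amanitin mesoderm, 2372 in alpha-amanitin endoderm and 1192 in morpholino endoderm. In set 2 the untreated ectoderm list had 4148 peaks, the mesoderm list 8812 and the endoderm list 3740, and in set 1 the ectoderm list had 13130 and the mesoderm list 15925. Read numbers behind the lists are unknown, so a missing peak may reflect depth as well as a missing mark, and all 7 set 2 lists ended at a −log10 p of about 9. With 1 library per sample there is no replicate check, and regions were compared without p-values. Intervals on shares are exact 95% Clopper-Pearson intervals, those on differences of shares are Newcombe's, and both cover counting error only. Where intervals are said to overlap, this is a description and does not show that the shares are equal. Some shares set side by side come from the same regions, which the intervals do not take into account. No label or file header names the build of the coordinates, so they are left without gene names and without sequence.

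Most injection-only regions were in a single injected list. Alpha-amanitin ectoderm alone held 462 of the 1389 (33.3%), morpholino endoderm alone 365 (26.3%), alpha-amanitin mesoderm alone 270 (19.4%) and alpha-amanitin endoderm alone 164 (11.8%). Only 128 regions were in more than 1 injected list (9.22%, 95% interval 7.75 to 10.9), against 2433 of the 4964 other injected regions (49.0%, 47.6 to 50.4), a difference of -39.8 percentage points (-41.8 to -37.65). Over all injected regions the share was 40.3%. The share of injection-only regions held by more than 1 list was 4.08% without the alpha-amanitin mesoderm list and 4.01% with the injected lists cut to equal length. Leaving out or shortening a list leaves fewer chances of sharing, and no value for the other injected regions stands beside these. A region in several injected lists has more chances to meet an untreated peak, so the difference of -39.8 points is not independent of how the regions were chosen.

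**Figure D1:**
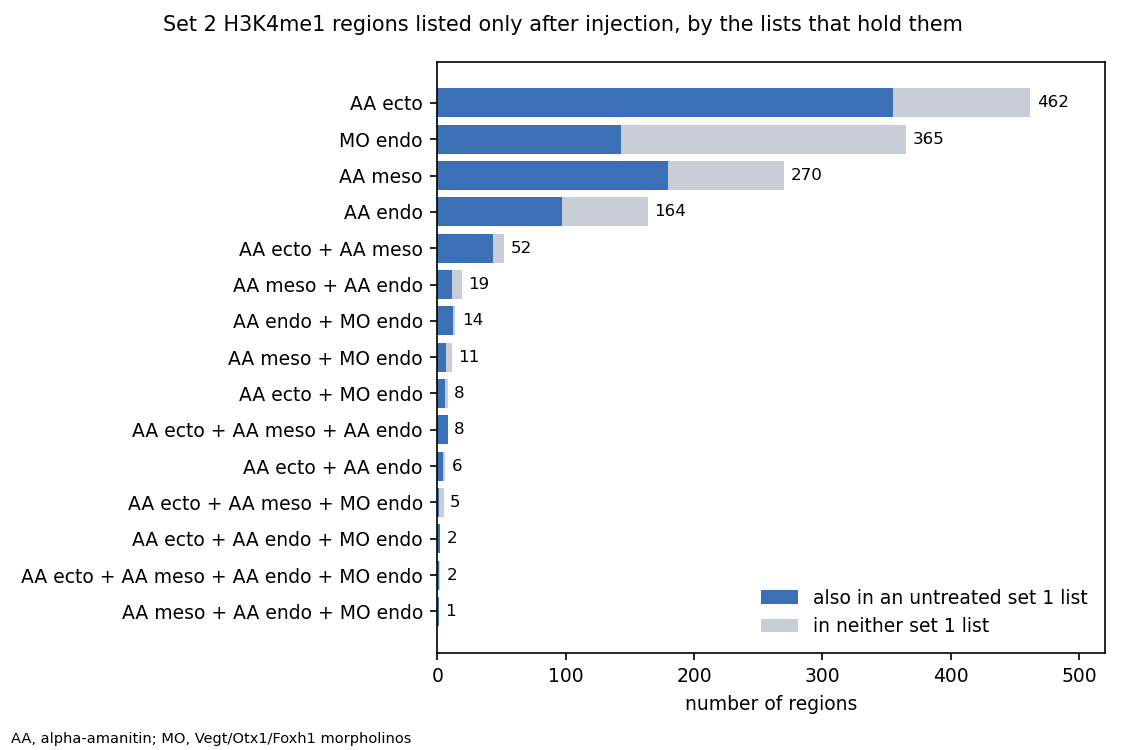
Number of injection-only regions (x axis) for each combination of injected lists that hold them (y axis); blue marks regions also found in an untreated set 1 list and grey those in neither. The 4 bars of a single list, from 462 down to 164 regions, make up most of the 1389, and of these 4 only the morpholino bar has more grey (222) than blue (143).

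Among the 128 regions of several lists, 85 were held by alpha-amanitin lists alone and 43 by the morpholino list with at least 1 alpha-amanitin list. The commonest pair was alpha-amanitin ectoderm with alpha-amanitin mesoderm, with 52 regions in those lists alone. Counting every region that both of these lists held gives 67, which is 12.3% of the ectoderm and 18.2% of the mesoderm injection-only regions. The same lists shared 1675 of the other injected regions, 64.6% of those in ectoderm and 52.4% of those in mesoderm. Alpha-amanitin and morpholino endoderm, the pair from the same tissue, shared 19 injection-only regions, 8.80% of the 216 after alpha-amanitin and 4.66% of the 408 after morpholinos. Their counts for the other injected regions were 418 shared, 20.0% of 2094 and 54.6% of 766. Where 2 lists did share an injection-only region, the summits of their overlapping peaks lay a median of 68 bp apart (171 pairs of peaks), against 76 bp in the other injected regions (5434 pairs). Summits lay within 100 bp in 63.7% (56.1 to 70.9) and 59.9% (58.6 to 61.2) of pairs, with overlapping intervals. Injection-only regions of 2 lists were also narrower, with a median of 385 bp against 443 bp. Narrower peaks leave less room between summits.

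The injected lists differed in how much of each was injection-only. These regions took up 408 of the 1192 morpholino peaks (34.2%, 31.5 to 37.0), 546 of the 3206 alpha-amanitin ectoderm peaks (17.0%, 15.7 to 18.4), 368 of the 3648 mesoderm peaks (10.1%, 9.13 to 11.1) and 216 of the 2372 alpha-amanitin endoderm peaks (9.11%, 7.98 to 10.3). The morpholino list was thus both the shortest and the one with the largest such share. When each injected list was cut to its 1192 strongest peaks and the untreated lists were kept whole, the shares were 34.3% in morpholino endoderm, 9.65% in alpha-amanitin ectoderm, 4.53% in mesoderm and 5.96% in alpha-amanitin endoderm. The morpholino list stayed whole in this cut, while the alpha-amanitin lists lost their weaker peaks. In those lists the share was higher among weaker peaks, as given below, so their lower shares are not independent of the cut. Counts depended on the lengths of the untreated lists as well: with 1192 peaks in all 7 set 2 lists, 56.1% of injected regions were injection-only, and morpholino endoderm again had the highest share, at 63.9% of its peaks. When only the untreated list of the same tissue was used for exclusion, there were 2163 such regions, 34.0% of the injected regions.

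Peaks in injection-only regions were weaker than the rest of their list by the authors' own −log10 q, given here as a percentile of the list with 100 as the strongest. Their median percentile was 37.1 in alpha-amanitin ectoderm, 31.3 in mesoderm, 34.45 in alpha-amanitin endoderm and 44.7 in morpholino endoderm, against 53.1, 52.5, 51.7 and 52.2 for the other peaks of the same lists. By fold enrichment over background, these peaks were slightly lower in the alpha-amanitin lists and higher in the morpholino list. Median fold was 6.055, 5.98 and 6.47 in alpha-amanitin ectoderm, mesoderm and endoderm, against 6.24, 6.12 and 6.57 for the other peaks. In morpholino endoderm it was 6.37 (quartiles 5.57 and 7.55) against 5.85 (5.12 and 6.98). A weak peak is less likely to be called again in another list, so strength is not independent of how the regions were chosen. The share of injection-only peaks was lower among stronger peaks in the alpha-amanitin lists. With each list divided into 5 equal bins of strength, it was 24.1% in the weakest and 7.48% in the strongest bin of the ectoderm list, 16.1% and 3.29% in mesoderm, and 15.8% and 1.90% in endoderm. The morpholino list had a larger share in every bin, with 40.8% (34.5 to 47.3) in its weakest and 31.8% (25.9 to 38.1) in its strongest. The bins are ranks within a list, so the same bin is not the same strength in lists of different length. In all 4 lists these peaks were also narrower; a wider peak is more likely to meet an untreated one, so this difference is not independent of how the regions were chosen. Median widths were 290, 272, 254 and 275.5 bp in alpha-amanitin ectoderm, mesoderm and endoderm and in morpholino endoderm, against 354, 354, 323 and 313.5 bp for the other peaks of each list.

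**Figure D2:**
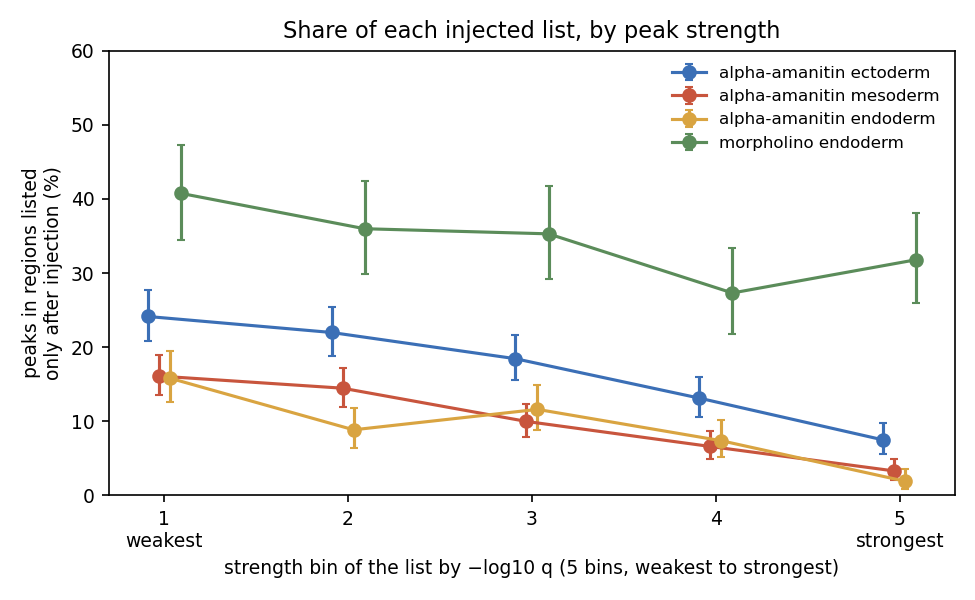
Share of peaks in injection-only regions (y axis, percent) for each of 5 strength bins of an injected list by the authors' −log10 q (x axis, weakest to strongest); points are shares, bars exact 95% intervals and colours the 4 lists. The alpha-amanitin lists end at 7.48%, 3.29% and 1.90% in the strongest bin, and the morpholino list at 31.8%.

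The highest −log10 q of an injection-only peak differed among the lists in the same way. In the morpholino list it was 93.5, with a 22.0-fold enrichment, at scaffold_236 (21886 to 22519), and this region was also in alpha-amanitin endoderm and in both set 1 lists. In alpha-amanitin ectoderm it was 39.0, in mesoderm 26.9 and in alpha-amanitin endoderm 21.7. The strongest other peaks of the 4 lists reached 112 in morpholino endoderm and 120, 126 and 106 in alpha-amanitin ectoderm, mesoderm and endoderm. Of the 4 lists, the morpholino list had the injection-only peak nearest to the top of its range.

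The untreated lists of set 1 gave a separate view of these regions. Of the 1389 regions, 452 were in both set 1 lists (32.5%), 224 in set 1 ectoderm alone (16.1%), 195 in set 1 mesoderm alone (14.0%) and 518 in neither (37.3%, 34.7 to 39.9). The 871 found in a set 1 list (62.7%, 60.1 to 65.3) compare with 4367 of the 4964 other injected regions (88.0%, 87.0 to 88.9), a difference of -25.3 points (-28.0 to -22.6), and with 82.4% of all injected regions. Set 1 and the untreated lists that chose the regions are both from untreated embryos, so this share is not independent of how the regions were chosen. Peak strength moved with it, and within 5 bins of strength, by the best percentile of a region, the difference averaged -24.0 points. The share found in set 1 was 59.2% in the weakest and 64.6% in the strongest bin of injection-only regions, against 80.6% and 92.1% of the other injected regions. The reverse set, 6894 untreated set 2 regions that overlapped no injected peak, was found in set 1 in 58.5% of cases (57.4 to 59.7), against 88.0% (87.0 to 88.9) of the 4631 untreated regions that did overlap one.

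The set 1 share differed among the lists. Of the 462 regions of alpha-amanitin ectoderm alone, 76.8% (72.7 to 80.6) were in a set 1 list, 70.1% (65.7 to 74.3) in set 1 ectoderm and 47.0% (42.3 to 51.6) in the longer set 1 mesoderm list. The other injected regions of this list alone were at 80.9% in set 1 ectoderm and 75.3% in set 1 mesoderm. Exclusion used 8812 untreated mesoderm peaks and 4148 untreated ectoderm peaks, so it could remove regions of set 1 mesoderm more often. The gap between 70.1% and 47.0% is thus not independent of how the regions were chosen. For the 270 regions of alpha-amanitin mesoderm alone, 50% (43.9 to 56.1) were in set 1 ectoderm and 54.1% (47.9 to 60.1) in set 1 mesoderm, with intervals that overlap. The 164 regions of alpha-amanitin endoderm alone were in set 1 ectoderm in 30.5% (23.55 to 38.15) and in set 1 mesoderm in 53.7% (45.7 to 61.5) of cases. Both set 1 lists are from other tissues than the endoderm samples.

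**Figure D3:**
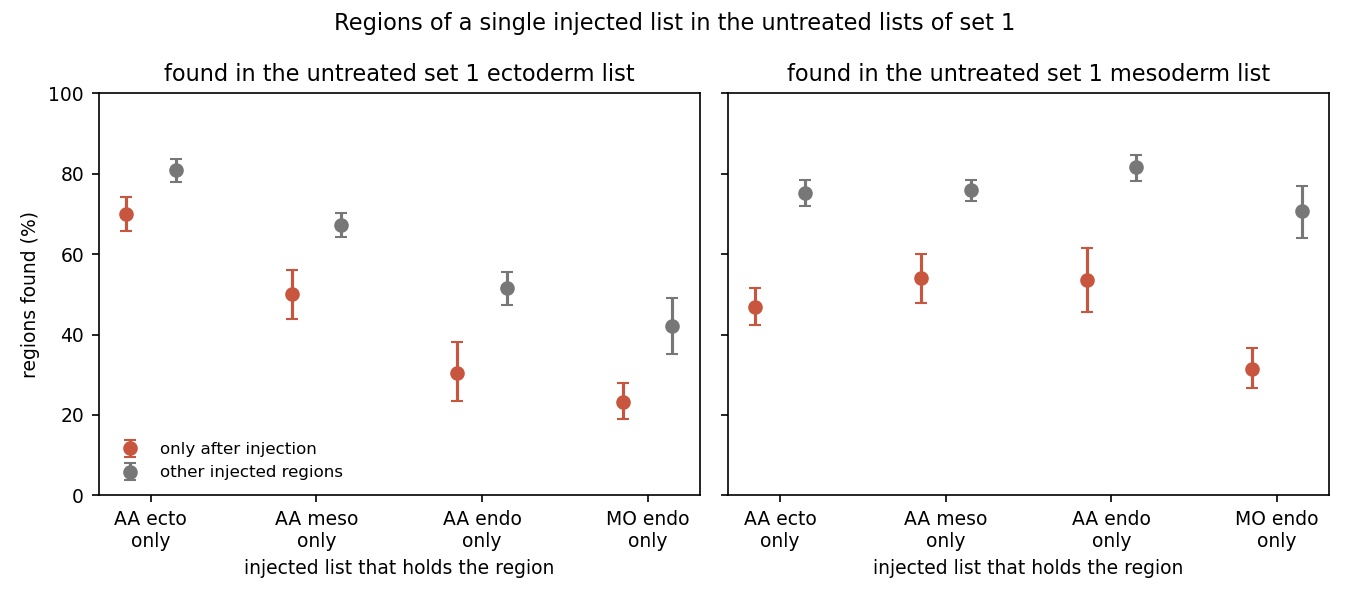
Share of regions held by a single injected list (x axis) that were found in the untreated set 1 ectoderm list (left panel) or set 1 mesoderm list (right panel); red points are injection-only regions, grey points the other injected regions, and bars exact 95% intervals. Red lies below grey in all 8 pairs, with the smallest distance for alpha-amanitin ectoderm in set 1 ectoderm (70.1% and 80.9%).

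Regions of the morpholino list alone were found in set 1 least often. Of the 365, 143 were in a set 1 list (39.2%, 34.1 to 44.4), with 23.3% in set 1 ectoderm and 31.5% in set 1 mesoderm, and 222 were in no other of the 9 lists. The other 202 regions held by the morpholino list alone, which did overlap an untreated set 2 peak, were in set 1 in 75.2% (68.7 to 81.0) of cases. The difference of -36.1 points (-43.4 to -27.9) compares with -12.2 (-16.7 to -7.79) in alpha-amanitin ectoderm, -17.0 (-23.2 to -11.1) in mesoderm and -25.3 (-33.4 to -17.4) in alpha-amanitin endoderm. Averaged over the 5 bins of peak strength, these differences were -35.9, -13.0, -17.6 and -27.85 points in morpholino endoderm and alpha-amanitin ectoderm, mesoderm and endoderm. Each bin had equal weight, although the strongest held only 11 injection-only regions in mesoderm and 6 in alpha-amanitin endoderm. Single bins ran from -38.9 to -31.4 points in morpholino endoderm and -19.2 to -6.06 in alpha-amanitin ectoderm. They ran from -28.5 to 0.55 in mesoderm and -51.7 to -8.4 in alpha-amanitin endoderm. Among the 518 regions in neither set 1 list, 235 were in the morpholino list (45.4%), which held 408 of all 1389 injection-only regions. For 486 of the 518 (93.8%), a single injected list was the only one of the 9 that held the region. This is close to the 90.8% of all injection-only regions that were in a single injected list.

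When a set 1 list did hold an injection-only region, its peak there was of middling strength. The median percentile of the −log10 q was 62.05 in set 1 ectoderm and 60.4 in set 1 mesoderm for injection-only regions, against 78.5 and 82.3 for the other injected regions. A strong set 1 peak is more likely to be called in untreated set 2 too, so this difference is not independent of how the regions were chosen. Where a region met several set 1 peaks, the strongest was taken. The other injected regions were wider (median 384.5 against 279 bp) and so could meet more of them. A set 1 peak can be wide enough to cover both an injection-only region and an untreated set 2 peak beside it. This was so for 129 of the 676 regions found in set 1 ectoderm (19.1%) and 120 of the 647 found in set 1 mesoderm (18.5%). The remaining 547 and 527 regions lay in set 1 peaks that touched no untreated set 2 peak, with median percentiles of 59.2 and 56.8.

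Injection-only regions lay at all distances from untreated peaks. The untreated set 2 peaks were also used to choose the regions, so distances to them are a description. The other injected regions overlap such a peak and offer no distance for comparison. The nearest untreated set 2 peak was a median of 3392 bp away (quartiles 429 and 42088.5 bp) for those that had one on their chromosome or scaffold. It was within 500 bp for 375 regions (27.0%, 24.7 to 29.4), within 1 kb for 477 (34.3%), within 10 kb for 815 (58.7%) and more than 100 kb away for 211 (15.2%), and 43 regions on scaffolds had no untreated peak on their sequence. Regions within 500 bp were found in set 1 in 76.3% (71.6 to 80.5) of cases and those farther away, or with no untreated peak on their sequence, in 57.7% (54.6 to 60.8). Near an untreated peak, a region can be found in set 1 through a set 1 peak that covers both. How far this enters the difference was not tested.

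Regions of the morpholino list were the most remote from untreated peaks. Within 500 bp of an untreated peak lay 62 of its 408 regions (15.2%, 11.85 to 19.05), against 29.0% (25.2 to 33.0) of the alpha-amanitin ectoderm, 38.6% (33.6 to 43.8) of the mesoderm and 25.9% (20.2 to 32.3) of the alpha-amanitin endoderm regions. The median distance was 21021.5 bp for the morpholino list, 2394 bp for alpha-amanitin ectoderm, 1405.5 bp for mesoderm and 2940.5 bp for alpha-amanitin endoderm. Regions that lie near each other have similar distances but were counted one by one, which the intervals do not take into account. Of the regions farther than 10 kb from an untreated peak or with none on their sequence, 34.4% (28.1 to 41.2) of 215 held by the morpholino list alone were in set 1, against 75.7% (68.6 to 81.9) of 173 in alpha-amanitin ectoderm alone, 55.8% (44.1 to 67.2) of 77 in mesoderm alone and 51.8% (38.0 to 65.3) of 56 in alpha-amanitin endoderm alone. The intervals of the endoderm samples overlap there, and the difference between them was not tested.

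**Figure D4:**
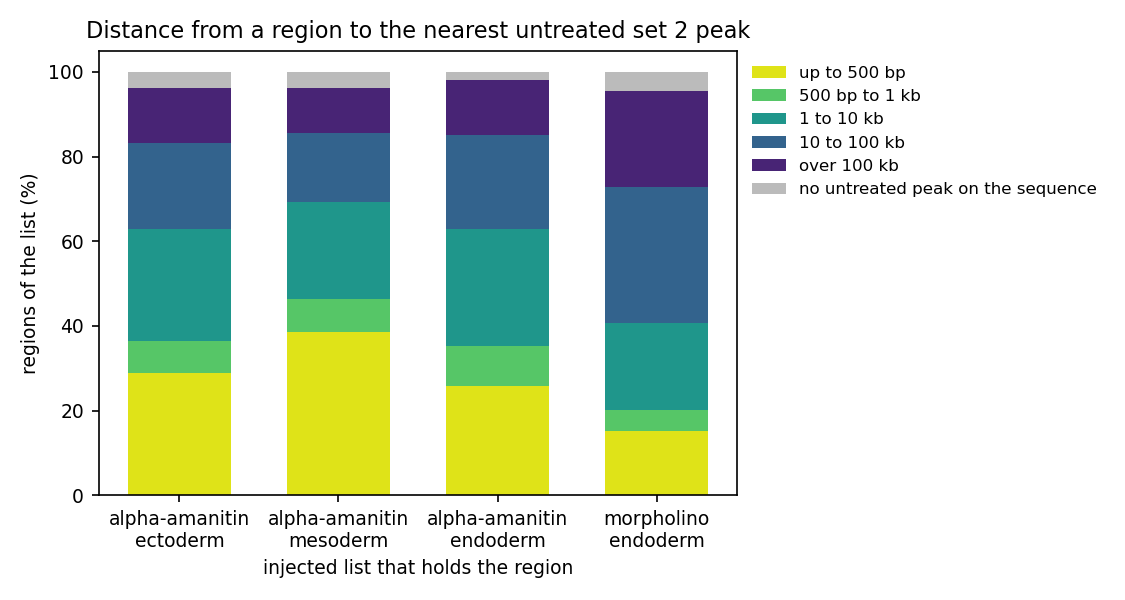
Injection-only regions of each injected list (x axis), in percent of the list's regions (y axis), by distance to the nearest untreated set 2 peak; colours are distance classes, and grey marks regions with no untreated peak on their scaffold. The class up to 500 bp takes 29.0%, 38.6% and 25.9% of the alpha-amanitin lists and 15.2% of the morpholino list.

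In each injected list, most regions held by it alone and lying within 500 bp of an untreated peak were beside a mesoderm peak. Of 127 regions of alpha-amanitin ectoderm alone that lay within 500 bp of an untreated peak, 86 were beside an untreated ectoderm peak and 72 beside a mesoderm peak, with some beside both. These shares, 67.7% (58.85 to 75.7) and 56.7% (47.6 to 65.45), have overlapping intervals. Of 109 such regions of mesoderm alone, 92 were beside a mesoderm peak and 45 beside an ectoderm peak. Of 45 regions of alpha-amanitin endoderm alone, 34 were beside a mesoderm peak and 19 beside an endoderm peak, and of 55 of the morpholino list alone the counts were 38 and 27. The untreated mesoderm list was the longest. The neighbouring untreated peak was itself overlapped by a peak of the injected list for 56 of the 127 regions in alpha-amanitin ectoderm (44.1%), 42 of the 109 in mesoderm (38.5%), 11 of the 45 in alpha-amanitin endoderm (24.4%) and 22 of the 55 in morpholino endoderm (40%).

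On the 10 chromosomes, the share of injected regions that were injection-only ran from 18.9% on chromosome 2 to 24.1% on chromosome 4, with overlapping intervals (16.1 to 21.8 and 20.7 to 27.7). On unplaced scaffolds it was 31.7% (27.7 to 35.9), with 162 such regions on 89 scaffolds. Scaffolds held 11.7% of injection-only regions, against 7.03% of the other injected regions, a difference of 4.63 points (2.88 to 6.55). Among regions held by a single list, the difference was 3.99 points (0.905 to 7.40) in alpha-amanitin ectoderm, 2.04 (-1.43 to 6.41) in mesoderm, -0.791 (-3.37 to 3.31) in alpha-amanitin endoderm and 5.27 (-0.825 to 10.7) in morpholino endoderm, so 3 of the 4 intervals include 0. Counting all regions of each list, it was 3.09 points (0.555 to 6.09) in alpha-amanitin ectoderm and 4.42 (1.34 to 8.23) in mesoderm. By the same count it was 2.65 (-0.534 to 7.20) in alpha-amanitin endoderm and 5.33 (1.02 to 9.935) in morpholino endoderm. Only the alpha-amanitin endoderm interval includes 0 there, and regions of several lists enter more than once. The morpholino list had the largest scaffold share of the 4, at 18.4% (14.7 to 22.5) of its injection-only and 13.1% (10.75 to 15.65) of its other regions. A single scaffold, scaffold_94, held 22 of its 75 injection-only regions on scaffolds. Without that scaffold, 10.0% (8.5 to 11.8) of all injection-only regions were on scaffolds. Values for the other injected regions and for each list are not given for that setting.

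**Figure D5:**
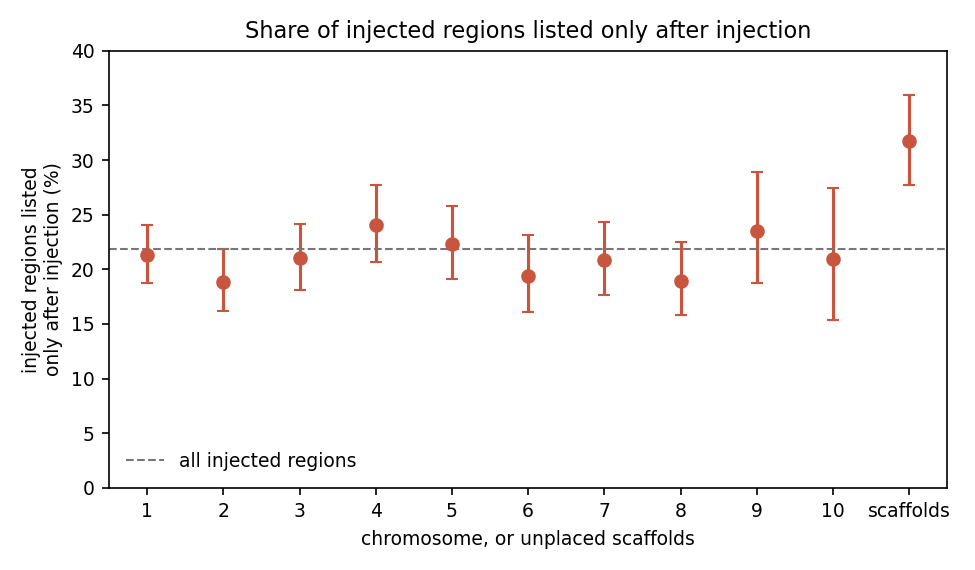
Share of injected regions that were injection-only (y axis, percent) on each chromosome and on the unplaced scaffolds together (x axis); points are shares, bars exact 95% intervals and the dashed line the share over all injected regions, 21.9%. The chromosomes lie between 18.9% and 24.1%, and the scaffolds at 31.7%.

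A single scaffold stood out, and it was singled out after its counts had been seen. Scaffold_94 held 25 injection-only regions, of which 22 were in the morpholino list and 20 in that list alone. The next scaffolds by count held 7 and 6. The morpholino list had 24 peaks on scaffold_94 in all, against 2, 6 and 4 in alpha-amanitin ectoderm, mesoderm and endoderm and 3, 8 and 3 in the untreated set 2 lists of those tissues. Between positions 143575 and 162972 it had 10 consecutive injection-only regions, each in the morpholino list alone and in neither set 1 list, with −log10 q from 7.45 to 39.15. The same 19398 bp held 2 untreated set 2 peaks, 2 alpha-amanitin peaks and 2 set 1 peaks. What lies behind this run was not tested, and peak lists do not show the coverage of the scaffold in each library. Without this scaffold, 33.05% of the morpholino peaks were injection-only and 44.3% of its injection-only regions were found in set 1, against 34.2% and 42.4% with it.

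Part of the morpholino regions lay near each other. Of the regions held by the morpholino list alone, 31.0% (26.3 to 36.0) had another of the same kind within 10 kb, or 29.0% (24.25 to 34.1) without scaffold_94. The shares were 21.9% (18.2 to 25.9) in alpha-amanitin ectoderm, 11.5% (7.94 to 15.9) in mesoderm and 8.54% (4.75 to 13.9) in alpha-amanitin endoderm. Without that scaffold, the morpholino and ectoderm intervals overlap. These shares were taken for injection-only regions alone, without a value for the other injected regions beside them. A list with more regions offers more chances of such a neighbour. The lists alone held 462 regions in alpha-amanitin ectoderm, 365 in morpholino endoderm, 270 in mesoderm and 164 in alpha-amanitin endoderm. With scaffolds left aside, the largest run with gaps of up to 50 kb lay on chromosome 1 (71391596 to 71471284) and held 8 regions, all of them in the morpholino list. Their −log10 q in that list ran from 8.22 to 17.7, and no untreated set 2 peak and no alpha-amanitin ectoderm or endoderm peak lay in the run, although an untreated peak lay 195 bp beyond its last region. The region at 71470392 to 71470764 was also in alpha-amanitin mesoderm, with a −log10 q of 18.5 there and 8.22 in the morpholino list. Of the 8 regions, 3 were in set 1. Of 3 runs with 6 regions, the one on chromosome 4 (82606186 to 82625625) was of another kind: 4 of its regions were in alpha-amanitin mesoderm, 2 in ectoderm and 2 in alpha-amanitin endoderm, none was in the morpholino list, all 6 were in set 1, and 5 of them lay within 1 kb of an untreated peak. Another on chromosome 1 (46999501 to 47035377) had all 6 regions in the morpholino list, with 1 also in alpha-amanitin endoderm, and 3 of them in set 1. The last, on chromosome 3 (132565323 to 132644877), was mixed, with 3 regions in alpha-amanitin ectoderm, 2 in the morpholino list and 1 each in the other lists, and 5 of its 6 regions were in set 1.

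Only 2 of the 1389 regions were in all 4 injected lists. The region on chromosome 4 (63224797 to 63225359) had a −log10 q of 12.2 in alpha-amanitin ectoderm, 14.8 in mesoderm, 10.9 in alpha-amanitin endoderm and 12.6 in morpholino endoderm, and fold enrichments between 6.77 and 7.67. It was in neither set 1 list and lay 5545 bp from the nearest untreated set 2 peak, in mesoderm. It is thus the region with the most injected lists that was absent from all 5 untreated lists. The other region, on scaffold_8580 (567 to 976), had a −log10 q of 13.1, 19.0, 7.51 and 6.51 in the lists in the same order, and both set 1 lists held it at percentiles of 93.0 and 85.6.

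Among the 16 regions of 3 lists, the one with the highest mean percentile lay on scaffold_8122 (1588 to 2095). Its −log10 q was 39.0 in alpha-amanitin ectoderm, 25.01 in mesoderm and 20.6 in alpha-amanitin endoderm, at percentiles of 99.2, 96.0 and 90.1, and both set 1 lists held it. The next, on chromosome 2 (90818610 to 90818982), was in alpha-amanitin ectoderm (19.4), alpha-amanitin endoderm (11.9) and morpholino endoderm (20.9). It belonged to the strongest peaks of set 1, with −log10 q of 43.1 in set 1 ectoderm (percentile 99.8) and 52.0 in set 1 mesoderm (percentile 99.9), although the nearest untreated set 2 peak was 95184 bp away. The third, on chromosome 6 (15879154 to 15879549), was in the 3 alpha-amanitin lists and in set 1 ectoderm, and lay 231 bp from an untreated mesoderm peak. After the chromosome 4 region, those absent from set 1 with the most lists and highest mean percentiles lay on scaffold_1604 (198 to 625) and scaffold_38 (1713 to 1994). Both were in alpha-amanitin ectoderm (−log10 q 12.4 and 11.9), mesoderm (18.2 and 13.6) and morpholino endoderm (11.97 and 17.7), on scaffolds without an untreated set 2 peak.

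The strongest regions of a single list on the 10 chromosomes, scaffolds left aside, differed in where else they were found. In alpha-amanitin ectoderm they lay on chromosome 2 (123816290 to 123817040, −log10 q 24.3) and chromosome 7 (106384346 to 106384715, −log10 q 23.0). Both were in set 1 ectoderm, at percentiles of 96.9 and 95.3, and not in set 1 mesoderm, and they lay 2119 and 268 bp from an untreated ectoderm peak. In mesoderm they lay on chromosome 8 (521573 to 521872 and 97799975 to 97800311), each with a −log10 q of 21.7, and the first was in both set 1 lists and the second in neither. In alpha-amanitin endoderm they lay on chromosome 10 (33408045 to 33408298, −log10 q 21.1) and chromosome 3 (22257127 to 22257422, −log10 q 18.3), and both were in neither set 1 list. A stronger region of that list alone, on scaffold_663 (29872 to 30093, −log10 q 21.7), was in both. In morpholino endoderm they lay on chromosome 9 (26455262 to 26455572, −log10 q 66.7, 20.5-fold) and chromosome 7 (68376272 to 68376535, −log10 q 34.0, 13.3-fold), and the scaffold_94 region at 143575 to 143863 (−log10 q 39.15) lay between them in strength. The chromosome 9 region was in set 1 mesoderm at percentile 77.1 and the chromosome 7 region in set 1 ectoderm at percentile 15.8, and both lay more than 100 kb from an untreated set 2 peak (250438 and 234338 bp).

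Because the regions were chosen by an overlap of 1 bp, some were near the limit. The nearest to an untreated peak lay 2 bp away on chromosome 1 (74612473 to 74612812, in alpha-amanitin endoderm), followed by gaps of 3 bp on chromosome 5 (66225571 to 66225806, alpha-amanitin ectoderm) and on scaffold_216 (21964 to 22268, alpha-amanitin mesoderm and endoderm). On the other side, the smallest overlaps with an untreated peak were 4 bp on chromosome 1 (70665465 to 70665879), 5 bp on chromosome 4 (13119790 to 13120070) and 7 bp on chromosome 1 (102658625 to 102658856), all of regions in alpha-amanitin ectoderm alone. In all, 22 injection-only regions had a gap of at most 50 bp, and 29 of the other injected regions overlapped an untreated peak by at most 50 bp.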

How the data were processed

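H3K4me1 ChIP-seq peak lists were used as deposited. Samples were assigned from their titles, and the regions, lists and alternatives were chosen with earlier results of these data known. Reads were aligned with Bowtie2 2.2.7 per the submitters' processing notes; the caller and build are not stated in any source used. The deposited columns of a peak are a score, a fold (the ratio to background), p and q as −log10 values, and a summit offset; these are the authors' own values and served only to describe and rank peaks within a list. The score was not used. Peak names mark the set 1 lists as pooled over replicates, with gaps in peak numbers that run to 35831 and 43181. The expression table of 15 single embryos was not used here.

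Peaks were merged and looked up by an overlap of at least 1 bp in Python 3.11.15 with numpy 2.4.6, and intervals were computed with scipy 1.17.1; matplotlib 3.10.9 drew the figures. The overlap steps were tested on simulated data. Regions named are those of the most injected lists, the strongest of each list alone on the 10 chromosomes, those in neither set 1 list, those nearest the overlap limit and the 2 densest runs; the scaffold run and 2 further runs were chosen after their values were seen. Of these, 1 region held by 4 lists is named under both the first and the third rule. Alternatives tried were exclusion within 500 bp, a 50% overlap relative to the shorter peak, the stronger 50% of each injected list, equal lengths, the 10 chromosomes alone, leaving out each injected list, and exclusion by the same tissue only. The 500 bp distance and the 50% overlap were applied to the look-up of set 1 peaks too. Added after seeing the data were injected lists alone at equal length, the omission of scaffold_94, and the shares by list.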

Additional observations from a re-analysis of the deposited data

How the results depend on the processing

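No paired analysis was possible because each set 2 list comes from 1 library, the set 1 lists are pooled over replicates and no test was run; for the same reason no replicate could be left out. Of 115 alternative values of the leading results, 65 lay within 1.5 times the count or inside the 95% interval of the value reported, and 50 did not. Some of the 65 could hardly change. Leaving out 1 injected list has little bearing on whether peaks of another meet an untreated peak, and leaving out scaffold_94 kept 1364 of the 1389 regions. This tally is thus not a measure of robustness. The order of shares by list always had morpholino endoderm first and alpha-amanitin ectoderm next, and morpholino regions had the lowest set 1 share in each of the 8 alternatives that kept all 4 lists; mesoderm and alpha-amanitin endoderm changed places in 5 of them. Shares by list are given below for alpha-amanitin ectoderm, mesoderm and endoderm and, where it moved, morpholino endoderm.

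With 1192 peaks in each set 2 list, 56.1% of injected regions were injection-only, 75.1% of them were in set 1, 13.6% in more than 1 list, the median percentile was 40.8 and the shares by list were 43.7%, 35.2%, 38.3% and 63.9%. With only the injected lists at that length, there were 623 regions (18.9%), 52.5% in set 1, 4.01% in more than 1 list, 16.4% on scaffolds, a median percentile of 40.7 and shares of 9.65%, 4.53% and 5.96%. The stronger 50% of the injected lists gave 514 regions (14.7%), 65.6% in set 1, 5.25% in more than 1 list, 17.9% on scaffolds and shares of 12.2%, 5.43%, 5.90% and 30.2%. Exclusion by the same tissue gave 2163 regions (34.0%), 69.9% in set 1 and shares of 25.8%, 12.1%, 23.9% and 46.4%. Excluding regions within 500 bp of an untreated peak gave 15.96% and shares of 12.1%, 6.20%, 6.75% and 29.0%, and an overlap of 50% gave 24.1% and shares of 19.2%, 12.1% and 10.7%. In both, the same distance or overlap also decided whether a region was found in set 1. With exclusion within 500 bp, 64.7% of the 1014 regions were in set 1 by that measure. By an overlap of 1 bp it was 57.7% (54.6 to 60.8), outside the interval of the value reported (60.1 to 65.3). Without the morpholino list, 17.7% of regions were injection-only, 71.15% of them in set 1, at a median percentile of 34.4. Without alpha-amanitin ectoderm the shares were 17.9%, 55.8% in set 1 and 6.67% in more than 1 list, and the last was 4.08% without mesoderm and 7.32% without alpha-amanitin endoderm. Set 1 shares by list ranged over the alternatives from 41.4% to 60.2% in morpholino endoderm, 75.4% to 88.3% in alpha-amanitin ectoderm, 67.7% to 87.1% in mesoderm and 62.6% to 84.6% in alpha-amanitin endoderm. The lowest values in morpholino endoderm and alpha-amanitin ectoderm used an overlap of 50% with set 1 peaks. The lowest in mesoderm counted set 1 peaks within 500 bp. Of the 18 regions named one by one for their lists, strength, absence from set 1 or gap, between 13 and 18 remained injection-only under each alternative. Some alternatives drop regions by construction. With the 10 chromosomes alone, 13 were kept because those on scaffolds drop out, and leaving out a list removes regions of that list alone. These counts are thus not a measure of robustness. Unknown depth limits every count: the lists show which peaks passed a threshold, not where the mark is absent.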
